A study of Mus musculus with 2 samples.

Results

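The Bcl2 family decides whether a cell keeps its mitochondria intact or dies by apoptosis. Anti-apoptotic members such as Bcl2, Bcl2l1 (Bcl-xL) and Mcl1 hold the effectors Bax and Bak1 in check, and BH3-only members such as Bcl2l11 (Bim), Bbc3 (Puma) and Pmaip1 (Noxa) release or activate those effectors, which then permeabilise the outer mitochondrial membrane. In the thymus, where T cells mature, this balance sets the fate of thymocytes that fail selection, are exposed to glucocorticoid or carry broken DNA. The transcripts of 10 family genes, of 27845 gene names on the array, were followed here: the BH3-only genes Bbc3, Bcl2l11, Pmaip1, Bid and Bad, the effectors Bax and Bak1, and the anti-apoptotic genes Bcl2, Bcl2l1 and Mcl1. All probes whose gene name on the array equals one of these symbols were taken, which gave 19 of 41174 probes, with at least 1 for each gene. RefSeq accessions (assembly GRCm38.p6) named the same gene for 16 of the 19 probes, the other 3 accessions were not in that table, and 0 probes under another name carried an accession of a member.

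The samples were thymus RNA of Pla2g10-Tg/+ mice, which carry a transgene for the secreted phospholipase A2 of group X, and of littermate controls, all on the C57BL/6 background, 6 months old and fed a standard diet. RNA of 4 mice was pooled per genotype and 500 ng was labelled, per the labels, which do not name the promoter of the transgene. Both genotypes were hybridised together on 2 two-colour arrays, the transgenic RNA in red (Cy5) on array 1 and in green (Cy3) on array 2. The labels call the arrays replicates but describe only 1 pool per genotype, so they were read as a dye swap of 1 pair of pools. The SD between arrays is therefore technical, and spread between animals was not measured.

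Each probe is given by its log2 ratio, transgenic over control, on either array, and by their mean ± the SD between the 2 arrays. Levels are normalized intensities per channel after an offset of 50 was added to each, which pulls dim ratios towards 0. A level compares the channels of 1 probe and not different probes. A probe was tested if the scanner software marked at least 1 genotype well above background on both arrays, as 12235 of 41174 probes were. It was called if both arrays read at least 0.3 in size with the same sign. Of the tested probes, 1.05% were called higher and 0.548% lower, while the dye contrast, in which both arrays favour the same colour, gave 0.114% (red) and 0.237% (green).

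Of the 19 family probes, 12 were tested, covering 9 of the 10 genes: 4 BH3-only, 2 effector and 6 anti-apoptotic probes. In bulk tissue, fewer cells of a type and less RNA per cell cannot be told apart. Markers of the thymus were present, as 14 of 15 listed genes of immature thymocytes were tested, among them Rag1, Dntt, Cd8a and Cd8b1. The single Pla2g10 probe was well above background in 0 of 4 channels. It read 35.2 and 43.0 units in the transgenic channels, against 45.1 and 39.5 units in the control channels, so the transgene could not be checked on these arrays.

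One family gene passed the rule. Bbc3, which encodes the BH3-only protein Puma, rose in the transgenic thymus on both arrays, 0.51 ± 0.10 on the log2 scale or 1.43-fold. Of the 12 tested family probes, 1 was called higher and 0 lower, beside the 1.05% and 0.548% of all tested probes given above. Another 5 probes read above 0 on both arrays without reaching the call: Pmaip1, Bak1 and all 3 probes of Bcl2. Those 6 of 12 stand beside 27.5% of all tested probes. They count Bcl2 3 times, and Pmaip1 entered the test only through the transgenic side. All tested family probes but Pmaip1 were well above background in all 4 channels, and of these, 5 read above 0 on both arrays. The share of all probes under that filter was not taken. By the brightest probe of each gene, 4 of 9 genes did, beside 28.4% of all genes tested, and the median of the 9 was -0.06. Below 0 on both arrays were 2 of 12, the tested Bcl2l1 probe and 1 of the 2 Mcl1 probes, beside 29.4% of all tested probes. The arrays gave opposite signs for the other 4 probes, in Bcl2l11, Bid, Bax and the other Mcl1 probe, as they did for 43.1% of all tested probes. On 1 array or both, 3 of 12 reached 0.3 in size (Bbc3, Pmaip1 and 1 probe of Bcl2), beside 13.0% of all. Array 1 alone put all 3 of these at 0.3 or above, beside 5.2% of all, and array 2 alone put Bbc3 there, beside 2.56%. No family probe read -0.3 or below on either array, beside 4.5% of all on array 1 and 2.7% on array 2. At 0.5 on both arrays 0 of 12 were higher, beside 0.294% of all.

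**Figure D1:**
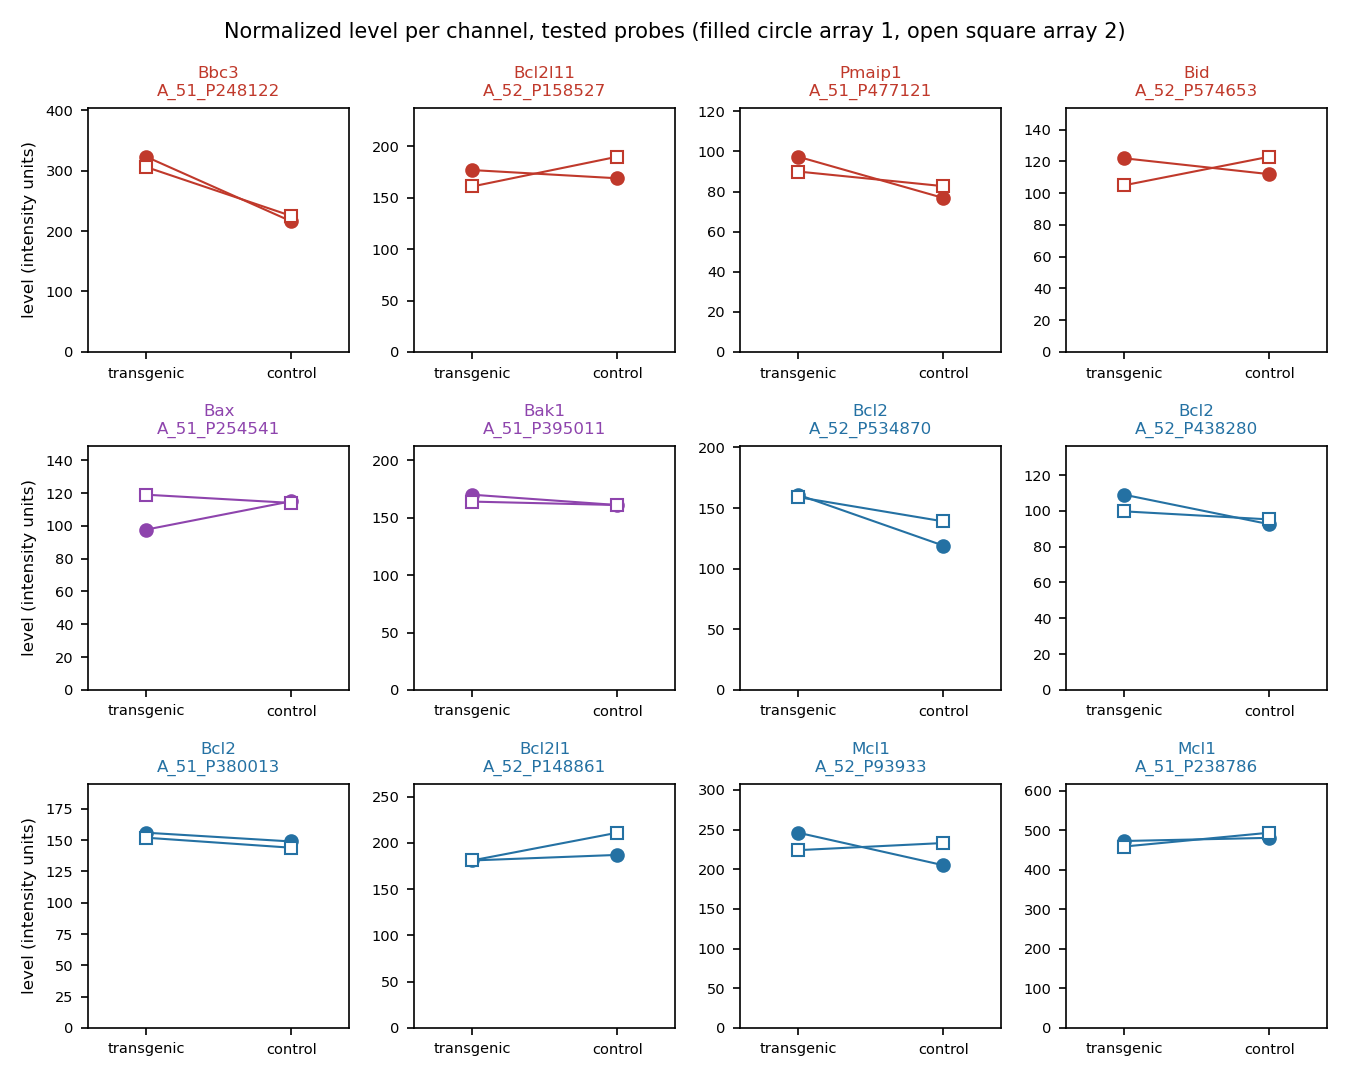
Normalized level in intensity units (vertical axes, each from 0) of the 12 tested family probes in the transgenic channel (left in each panel) and the control channel (right), with filled circles for array 1, open squares for array 2 and lines joining the channels of 1 array. Only Bbc3 shows both lines falling steeply towards the control side, with 323 and 306 units in transgenic and 216 and 225 units in control channels.

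Promoters of 9 of the 10 genes were at hand, as 15 windows of 300 bases, each from 250 bases before to 50 after a transcription start (RefSeq, GRCm38.p6). Of these, 3 are shown, written 5′ to 3′ on the strand of the gene. The first belongs to Bbc3, the gene that was called, and the second to Bcl2l11, the BH3-only gene that carries the same forkhead motif but gave opposite signs on the 2 arrays. In both, capitals mark the forkhead motif GTAAACA or its reverse complement TGTTTAC, which FoxO factors are known to bind. The third belongs to Bcl2, the anti-apoptotic gene whose 3 probes all read above 0, and capitals mark a half-site of the cyclic AMP response element, TGACGT. They lie at chr7:16310011-16310310 (plus strand), chr2:128125788-128126087 (plus strand) and chr1:106714241-106714540 (minus strand).
Bbc3: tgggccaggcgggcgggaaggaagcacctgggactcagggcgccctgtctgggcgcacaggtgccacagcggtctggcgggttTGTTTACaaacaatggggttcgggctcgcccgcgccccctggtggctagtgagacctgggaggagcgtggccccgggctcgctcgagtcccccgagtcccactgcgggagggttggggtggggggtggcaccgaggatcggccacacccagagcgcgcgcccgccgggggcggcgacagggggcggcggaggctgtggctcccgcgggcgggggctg
Bcl2l11: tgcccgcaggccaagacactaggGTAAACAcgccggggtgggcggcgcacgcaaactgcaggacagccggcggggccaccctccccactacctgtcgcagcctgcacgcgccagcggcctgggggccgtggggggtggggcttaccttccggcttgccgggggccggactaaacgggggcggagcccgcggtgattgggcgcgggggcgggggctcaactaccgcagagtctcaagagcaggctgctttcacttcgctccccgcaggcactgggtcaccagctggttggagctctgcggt
Bcl2: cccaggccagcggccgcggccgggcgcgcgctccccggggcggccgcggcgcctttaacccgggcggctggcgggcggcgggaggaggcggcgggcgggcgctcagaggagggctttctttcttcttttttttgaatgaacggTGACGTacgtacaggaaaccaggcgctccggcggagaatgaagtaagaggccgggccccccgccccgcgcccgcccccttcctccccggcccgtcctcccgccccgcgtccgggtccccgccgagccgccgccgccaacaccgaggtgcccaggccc

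The forkhead match begins 167 bases before the start in Bbc3 and 227 bases before it in Bcl2l11. It was found in 2 of the 15 family windows and in 3.65% of all 32851 promoter windows, on either strand. The TGACGT half-site begins 107 bases before the Bcl2 start and was found in 1 of 15 family windows and 7.51% of all windows. GC boxes (GGGCGG or CCGCCC) were in 10 of 15 family windows, with 4 in the Bbc3, 3 in the Bcl2l11 and 7 in the Bcl2 sequence shown, against 35.7% of all windows holding at least 1. The 10 windows held 57.3 to 78.0% G or C, against a median of 52.7% over all windows, and the shares were not matched for this. Some genes have several windows, and the Bbc3 windows from 16310011 and 16310181 overlap, so some GC boxes count in both. The E-box CACGTG was in 2 of 15 (Bax and another Bbc3 start) and in 7.15% of all. A CCAAT box was in 4 of 15 and in 37.4% of all. The glucocorticoid half-site AGAACA and the TATA box TATAAA were in 0 of 15, and in 19.0% and 13.6% of all windows. The motifs were chosen with these sequences in view, they do not overlap each other in the capitals shown, and a match is a description of the letters only.

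Among the BH3-only genes, Bbc3 is induced by p53 and by glucocorticoid and binds every anti-apoptotic family protein. Its single probe (A_51_P248122, transcript NM_133234, mm8 chromosome 7, 15476576 to 15476635) had levels of 323 and 306 units in the transgenic channels, against 216 and 225 units in the control channels. Both transgenic values lay above both control values. The log2 ratio was 0.58 on array 1 and 0.44 on array 2. Of the 12235 tested probes, 45 (0.368%) read at least 0.44 on both arrays. In the authors' deposited table of scanner results, the software's error model gave Bbc3 p = 0.00121 on array 1 and p = 0.00344 on array 2. Bbc3 was the only 1 of the 12 family probes under 0.01 on both arrays in that deposited table, beside 0.997% of tested probes higher and 0.286% lower by that rule. A limma fit that takes each array as a measurement, and so sees technical spread alone, gave Bbc3 an adjusted p of 0.0095. At an adjusted p under 0.05, limma called 1 of 12 family probes higher and 0 lower, beside 0.842% and 0.417% of all tested probes. The call rested on the loess correction for dye: with each array only centred on its median, Bbc3 read -0.18 on array 2, and the mean of both arrays was 0.46. No family probe was then called higher, beside 0.114% of all tested probes, nor with each array centred on its tested probes, beside 0.703%.

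Pmaip1, a p53-induced BH3-only gene whose product chiefly binds Mcl1, had the next higher ratio of its class. Its probe (A_51_P477121) had levels of 97.4 and 90.0 units in the transgenic channels, against 76.8 and 82.7 units in the control channels, so the genotypes did not overlap. The log2 ratios were 0.34 and 0.12, with a mean of 0.23 ± 0.16, and array 2 missed the threshold of the call. The probe was dim, with 58.0 and 32.5 units above local background in the transgenic channels, against 26.6 and 37.4 in the control channels. It was well above background in 2 of 2 transgenic but only 1 of 2 control channels, and so entered the test through the transgenic side. With an offset of 0 the ratios were 0.83 and 0.32, which would pass the rule, as would 3 of the 12 family probes (Bbc3, Pmaip1 and 1 of Bcl2) beside 4.08% of all tested probes. The log ratios in the authors' deposited table gave the same 3 probes, beside 5.21%.

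Bcl2l11 encodes Bim, the BH3-only protein that is needed for the death of thymocytes at negative selection. Only 1 of its 3 probes was tested (A_52_P158527, NM_207680, mm8 chromosome 2, 127853756 to 127853815). It had levels of 177 and 161 units in the transgenic channels, against 169 and 190 units in the control channels. The ranges overlapped, and the log2 ratios of 0.07 and -0.24 had opposite signs, with a mean of -0.09 ± 0.22. The other 2 probes (A_52_P348214 and A_51_P484880) were well above background in 0 of 4 channels. Their alignments stretch over 682 and 11096 bases of mm8 chromosome 2 against 60 bases for the tested probe, and they lie upstream of it.

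Bid, which links death receptors to mitochondria once it is cleaved by caspase-8, also gave opposite signs. Its probe (A_52_P574653, mm8 chromosome 6, 120859065 to 120859124) had levels of 122 and 105 units in the transgenic channels, against 112 and 123 units in the control channels. The log2 ratios were 0.12 and -0.24, and the genotypes overlapped. Bad, a BH3-only gene whose protein is held inactive by phosphorylation and 14-3-3 binding, was not measurable. Its 2 probes (A_51_P419364 and A_52_P614762) were well above background in 0 of 4 channels, with 2.40 to 10.9 units above local background in the transgenic channels, against 1.56 to 14.1 units in the control channels.

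Neither effector was called. Bak1 resides on the outer mitochondrial membrane, and its tested probe (A_51_P395011, mm8 chromosome 17, 26747611 to 26747670) had levels of 170 and 164 units in the transgenic channels, against 161 and 161 units in the control channels. The log2 ratios of 0.08 and 0.03 were both above 0 but far below the call. The other Bak1 probe (A_52_P225207) was well above background in red on both arrays, in 1 transgenic and 1 control channel, and was therefore not tested. Bax moves from the cytosol to mitochondria when activated. Its probe (A_51_P254541, mm8 chromosome 7, 45334141 to 45334296) had levels of 97.7 and 119 units in the transgenic channels, against 115 and 114 units in the control channels, so the transgenic pair lay on both sides of the control pair. The log2 ratios were -0.23 and 0.07, with a mean of -0.08 ± 0.21.

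**Figure D2:**
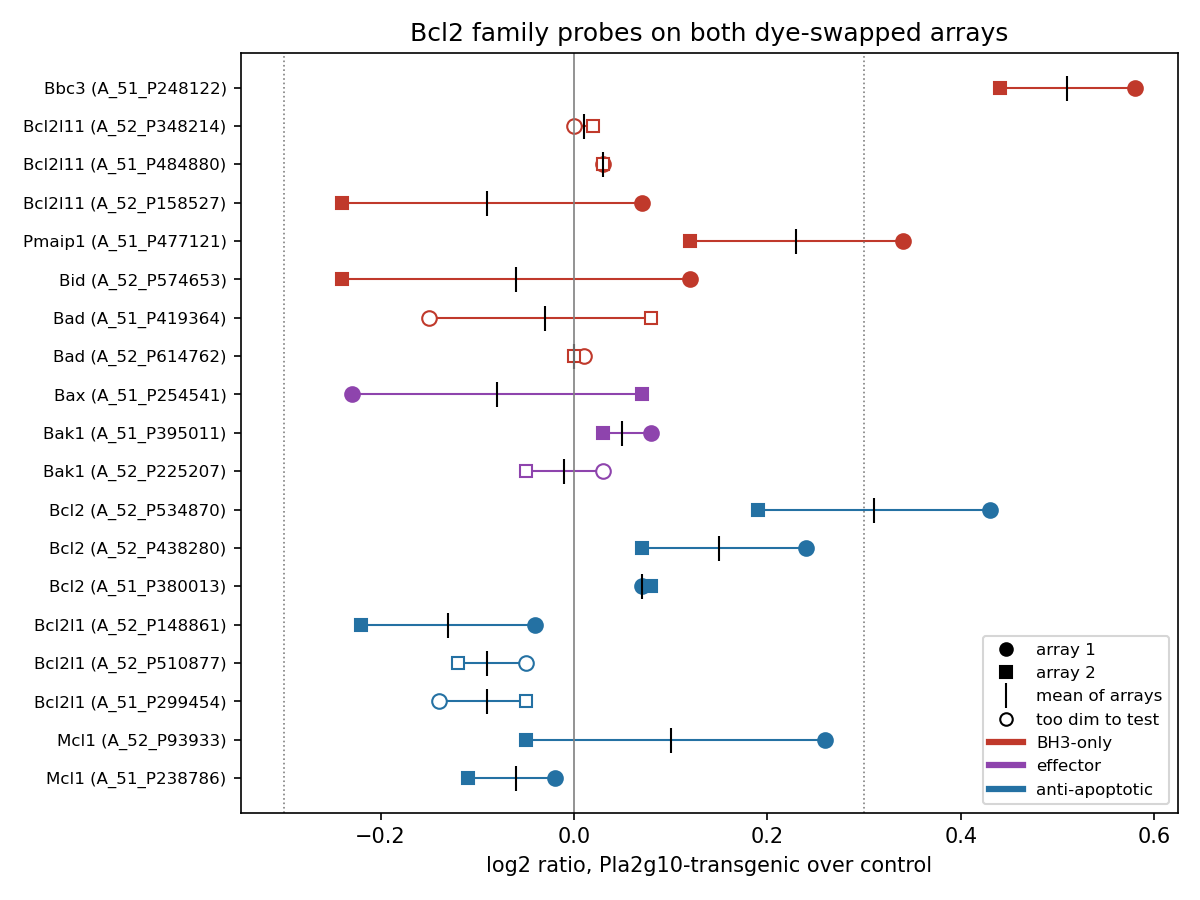
Log2 ratio of transgenic over control (horizontal axis) for all 19 family probes (rows), with circles for array 1, squares for array 2, ticks for their mean and open symbols for probes too dim to test; dotted lines mark 0.3 in either direction. Only Bbc3, at 0.58 and 0.44, has both arrays beyond a dotted line, and 4 tested probes span 0.

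Bcl2, the founding anti-apoptotic gene, is low in double-positive thymocytes and regained as they mature. Its 3 probes all read above 0 on both arrays, by unequal amounts. The probe for transcript variant 1 (A_52_P534870, NM_009741, mm8 chromosome 1, 108365763 to 108365822) had levels of 161 and 159 units in the transgenic channels, against 119 and 139 units in the control channels. The genotypes did not overlap, and the log2 ratios of 0.43 and 0.19 gave a mean of 0.31 ± 0.17 or 1.24-fold. Of all tested probes, 2.91% read at least as high as the lower of these ratios on both arrays.

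The other 2 Bcl2 probes lie 173 kb away on the same chromosome, upstream on the minus strand of the gene and 1.7 kb from each other. A_52_P438280 (cDNA AK077913, 108538280 to 108538339) had levels of 109 and 99.7 units in the transgenic channels, against 92.5 and 95.2 units in the control channels, a mean log2 ratio of 0.15 ± 0.12. A_51_P380013 (transcript variant 2, NM_177410, 108539940 to 108539999) had levels of 156 and 152 units in the transgenic channels, against 149 and 144 units in the control channels, a mean of 0.07 ± 0.01. Transgenic values lay above control values in both, and neither was called. The 3 probe means thus ran from 0.07 to 0.31, a range of 0.24, and on array 2 alone the probes read 0.19, 0.07 and 0.08.

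Bcl2l1 encodes Bcl-xL, the anti-apoptotic protein that keeps double-positive thymocytes alive. Its tested probe (A_52_P148861, mm8 chromosome 2, 152472336 to 152472395) had levels of 181 and 181 units in the transgenic channels, against 187 and 211 units in the control channels. Both transgenic values lay below both control values, the log2 ratios being -0.04 and -0.22 with a mean of -0.13 ± 0.13. The other 2 Bcl2l1 probes also had means of -0.09 each but were too dim to test. Of all tested probes, 18.8% were at least as low as the smaller of the tested probe's ratios on both arrays.

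Mcl1 encodes a short-lived anti-apoptotic protein required throughout T cell development, and its 2 probes gave means of opposite sign. The brighter (A_51_P238786, mm8 chromosome 3, 95748337 to 95748396) had levels of 473 and 459 units in the transgenic channels, against 481 and 494 units in the control channels, a mean of -0.06 ± 0.06. The other (A_52_P93933, 95747025 to 95747084) had levels of 246 and 224 units in the transgenic channels, against 205 and 233 units in the control channels. Its log2 ratios of 0.26 and -0.05 pointed opposite ways, and the genotypes overlapped.

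Set side by side, the tested BH3-only probes had a median of the mean log2 ratio of 0.09 (range -0.09 to 0.51, 4 probes), the effector probes -0.01 (2 probes) and the anti-apoptotic probes 0.09 (range -0.13 to 0.31, 6 probes). By the brightest probe of each gene, the 3 anti-apoptotic genes had a median of -0.06, so its sign depends on how the Bcl2 and Mcl1 probes are counted. The median over all tested probes was -0.01, with 5th and 95th percentiles of -0.21 and 0.22. Bbc3, Pmaip1 and the variant 1 probe of Bcl2 lay above that upper percentile, and no family probe below the lower one. The half-difference between the arrays holds any dye effect left after loess together with noise between arrays. Its median size was 0.10 over the 12 family probes, the same as the median size of their mean ratios, 0.10. Over all tested probes these sizes were 0.06 and 0.08.

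**Figure D3:**
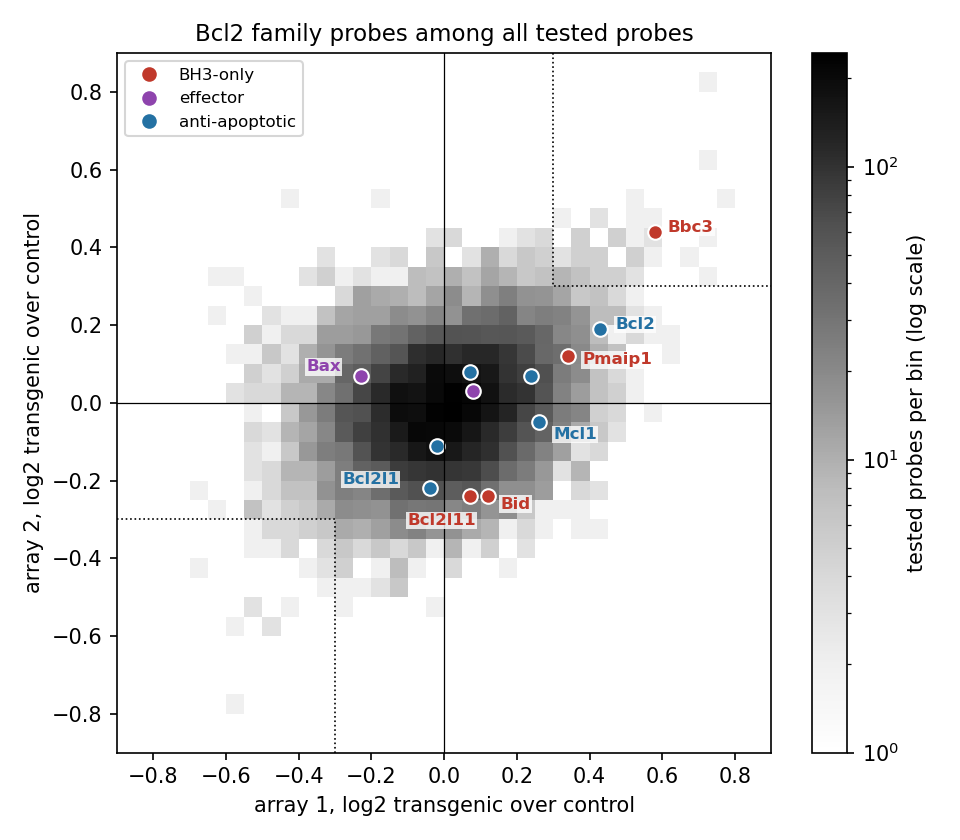
Log2 ratio of transgenic over control on array 1 (horizontal) and array 2 (vertical) for the 12 tested family probes (coloured points), over the density of all 12235 tested probes in grey bins; the axes stop at 0.9 in either direction, outside which some bins lie. Dotted corners mark the call, and only Bbc3 lies inside one.

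Members of the wider Bcl2 family were read from a further list of 16 genes, of which 8 were tested by their brightest probe. Bcl2a1b, an A1 gene of the anti-apoptotic class, was called higher at 0.44 ± 0.09, with levels of 159 and 141 units in the transgenic channels, against 112 and 109 units in the control channels. Near-identical A1 copies can share this probe, so the copy is uncertain. Bmf, a BH3-only gene whose protein is tethered to dynein light chain, reached 0.81 on array 1 and 0.29 on array 2, just short of the call. Its levels were 694 and 520 units in the transgenic channels, against 395 and 427 units in the control channels, and did not overlap. Bcl2l12 was lowest at -0.11 ± 0.14. By genes, 1 of 8 was called higher and 0 lower, and the median was 0.09, beside 1.11% and 0.576% called and a median of 0.00 over all 9551 genes tested. The BH3-only genes Bik and Hrk were on the array but not tested, since their probes were well above background in 0 channels.

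Downstream of the mitochondria, 0 of 10 tested genes of the caspase and apoptosome list were called, and the median was -0.07. Cycs, which encodes the cytochrome c that triggers the apoptosome, was lowest at -0.29 ± 0.09, and Diablo, whose product counters inhibitors of apoptosis, was highest at 0.05 ± 0.01. Of the inhibitor of apoptosis genes, 4 of 7 were tested and all 4 read above 0 on both arrays, with a median of 0.18 and 0 called. With the untested dim genes kept, the median of this list was 0.02. Birc3 and Birc2, ubiquitin ligases of the tumour necrosis factor pathway, were at 0.23 ± 0.01 and 0.22 ± 0.05, and Birc5, a mitotic member, was at 0.02 ± 0.01. In the death receptor list, 5 of 6 tested genes read below 0 on both arrays, with a median of -0.15 and 0 called, and the median was -0.05 with the untested dim genes kept. The caspase-8 inhibitor Cflar was lowest at -0.27 ± 0.11 by its brighter probe, but its other tested probe had a mean of 0.29, so its direction is not settled, and the receptor gene Fas was the exception at 0.14 ± 0.08. By genes, 28.4% of all tested read above 0 and 29.0% below 0 on both arrays.

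Among partners of the BH3-only proteins, 1 of 10 tested genes was called. Dynll1, the dynein light chain that binds Bim, was lower at -0.58 ± 0.17, with levels of 619 and 605 units in the transgenic channels, against 850 and 984 units in the control channels. Dynll2, the light chain that binds Bmf, was at -0.04 ± 0.08, and Bag3 was highest at 0.08 ± 0.03. Of 7 outer membrane genes tested, 0 were called, and the arrays gave opposite signs for all but Mtch2, the receptor of truncated Bid, at -0.16 ± 0.06. Mff, which recruits the fission enzyme of mitochondria, was highest at 0.18 ± 0.27. Of 12 tested regulators of transcription, 0 were called. Bcl11b was lowest at -0.40 ± 0.36 and Nr3c1, the glucocorticoid receptor gene, highest at 0.22 ± 0.07. Trp53, which encodes p53 and acts on Bbc3, Pmaip1 and Bax, was at -0.06 ± 0.04. Foxo1 was at 0.03 ± 0.06, and the Foxo3 probe was well above background in 0 channels. Over these 7 lists together, 57 of 79 genes were tested, 1 was called higher and 1 lower, and the median was -0.02.

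**Figure D4:**
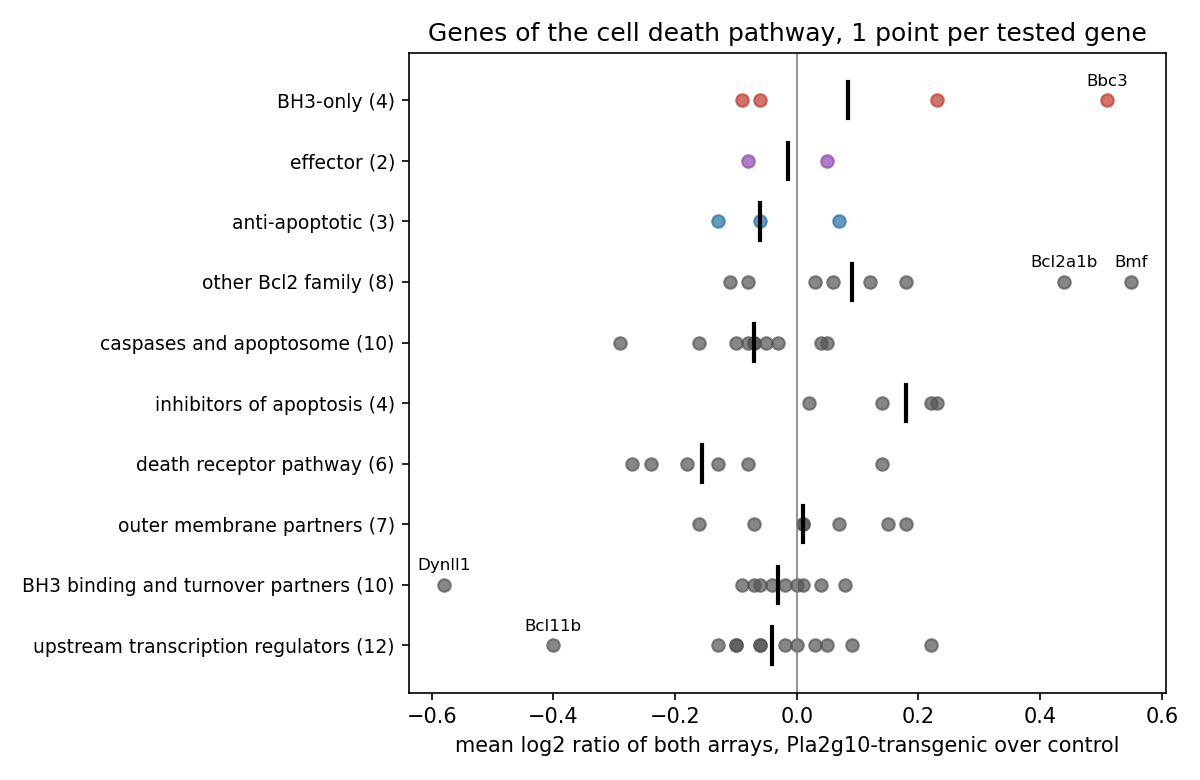
Mean log2 ratio of both arrays, transgenic over control (horizontal axis), of the brightest tested probe of each gene (points), by gene list (rows, with the number of tested genes); bars mark list medians and names are given from 0.4 in size on. Bbc3 (0.51), Bmf (0.55) and Bcl2a1b (0.44) stand at the high end, and Dynll1 (-0.58) and Bcl11b (-0.40) at the low end.

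Other transcript groups were read on the same arrays. Whether their values relate to those of the family was not tested. A summed level adds 1 probe per gene and is weighted to the brightest. For some lists, chosen after seeing the data, the sum without the brightest gene is therefore given too. Of 8 tested glucocorticoid response genes of 9 listed, all 8 read above 0 on both arrays and 4 were called higher, with a median of 0.44. Over all genes tested these shares were 28.4% and 1.11%. Fkbp5 was called by its brightest probe, but the means of its 3 tested probes ran from 0.01 to 0.51. Dusp1 and Per1 were near 0, at 0.06 and 0.08. Their summed level was 5380 and 5570 units in the transgenic channels, against 3380 and 3360 units in the control channels. Without Ddit4, the brightest, it was 1820 and 1760 units in the transgenic channels, against 1200 and 1190 units in the control channels. Of 14 tested immature thymocyte markers of 15 listed, 10 read below 0 on both arrays and 3 were called lower, among them Ccr9 and Cd8a, with a median of -0.31. By their brightest probes, 3 read above 0 on both arrays: Lef1 (0.15), Cd1d1 (0.03) and Cd4 (0.02). The other tested Cd4 probe had a mean of -0.12. Arpp21 was at -0.37 by its brightest probe, but another of its tested probes had a mean of 0.45. Their summed level was 28100 and 28400 units in the transgenic channels, against 34600 and 35100 units in the control channels. Of 10 listed mature T cell markers 9 were tested, 3 called higher and 1 lower, with a median of 0.08 and summed levels of 4660 and 4500 units in the transgenic channels, against 6200 and 5240 units in the control channels. Klf2, the gene called lower, set that order: without it the sums were 1980 and 1940 units in the transgenic channels, against 1900 and 1850 units in the control channels. Its other tested probe had a mean of 0.59, opposite to the -0.54 of the brighter one. Of 10 listed white adipocyte markers 5 were tested, with summed levels of 1670 and 1620 units in the transgenic channels, against 968 and 918 units in the control channels. Without Fabp4, the brightest, the sums were 535 and 485 units in the transgenic channels, against 290 and 270 units in the control channels. That order was partly fixed by the filter, since all the genes left but Lpl entered only through the transgenic side. Lpl alone had 120 and 120 units in the transgenic channels, against 91.3 and 93.5 units in the control channels. Fabp4 (0.78 ± 0.04) and Lpl (0.38 ± 0.03) were well above background in both genotypes and were called higher. The other 3, Cfd, Car3 and Cidec, were well above background in 0 control channels and entered only through the transgenic side, and with all listed genes on the array kept the median was 0.38. Plin1, Retn and Lep of that list were well above background in 0 channels.

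The remaining marker lists were read in the same way. Medullary epithelial markers had a median of 0.31 over 6 of 8 genes (2 called higher, summed levels of 1160 and 1140 units against 772 and 842 units in the control channels). Neutrophil markers had a median of 0.34 over 5 of 8 genes (2 called higher, 1510 and 1370 units against 1060 and 1000 units in the control channels), and of 0.13 with dim genes kept. Without S100a9, the neutrophil sums were 464 and 439 units in the transgenic channels, against 379 and 394 units in the control channels. Erythroid markers had a median of 0.58 over 2 of 7 genes (1 called higher, 1250 and 1400 units against 763 and 755 units in the control channels), and of 0.21 with dim genes kept. Without Hba-a1, only Alas2 was left, with 90.6 and 97.4 units in the transgenic channels, against 76.3 and 74.5 units in the control channels. Macrophage markers had a median of -0.01 over 7 of 8 genes, with 0 called and 1940 and 2020 units against 1760 and 1720 units in the control channels. Without Apoe, the macrophage sums were 711 and 730 units in the transgenic channels, against 743 and 723 units in the control channels. B cell markers had a median of 0.23 over 2 of 6 genes (0.07 with dim genes kept), with 0 called and 358 and 336 units against 296 and 297 units in the control channels, and the markers Cd79a, Ms4a1 and Pax5 were well above background in 0 channels.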

How the data were processed

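The deposited scanner files give mean spot and median local background intensity per colour on a linear scale, uncorrected, with probe positions on mm8. The headers name version 9.5.1.1 of Feature Extraction. Its deposited processed intensity, log10 ratio (red over green) and p-value columns are per spot, the p-value from an error model within an array. Values of the deposited series table equalled the log10 ratio of processed red to green signal to within 5e-10, neither turned nor centred.

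Signals were background corrected (normexp, offset 50) and loess normalized within arrays (limma 3.58.1, R 4.3.3), with 2256 control spots and 46 and 37 outlier spots at weight 0. Outlier spots were left out, spots of a probe averaged and array 2 multiplied by -1. Channel levels followed Aquantile scaling. Over tested probes the turned arrays correlated at r = 0.292 (across probes, which are not replicates). With 1 pool per genotype no test across animals was made, and the number of arrays limits the precision. A gene was read by its brightest tested probe. Named were all members and, per pathway list, called genes and the highest and lowest. Other genes were singled out after their values were seen. The members and lists were chosen with earlier results of these data known. The procedure was tested on simulated arrays with a constant dye shift, so the simulation does not bear on a dye effect that varies between probes. Alternatives were offset, background correction, centring, the software's ratios, dim-probe filter, call size, probe choice, limma over arrays and each array alone.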

Additional observations from a re-analysis of the deposited data

How the results depend on the processing

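Of the 12 tested family probes, 1 (Bbc3) was called higher. With an offset of 0, the software's log ratios or the series table, 3 were, Bbc3 with Pmaip1 and the variant 1 probe of Bcl2, beside 4.08% of all tested probes with an offset of 0 and 5.21% with the software's ratios. At a call size of 0.5 it was 0 probes, as array 2 read 0.44, beside 0.294% of all. On single arrays it ranged from 1 to 3. With median centring in place of loess it was 0, beside 0.114% of all, where the tested probes had medians of 0.353 and -0.41 on arrays 1 and 2 and the turned arrays correlated at -0.463. Then 0 family probes read above 0 and 0 below 0 on both arrays, in place of 6 and 2. Of all 12235 tested probes, only 278 then read above 0 and 687 below 0 on both arrays. With each array centred on its tested probes instead, an alternative chosen after seeing the data, 0 were called higher, beside 0.703% of all, and Bbc3 read 0.74 and 0.23. On both arrays, 5 family probes then read above 0 and 0 below 0, beside 1772 and 1773 of all 12235 tested probes. When all 19 family probes of any brightness were kept, 7 read above 0 and 4 below 0 on both arrays. By sign on array 1 alone, 9 of the 12 read above 0 and 3 below, and on array 2 alone 7 and 5. These counts have no share over all probes beside them, so nothing particular to the family can be read from them. No family probe was called lower under any setting tried. Lower calls were rare among all 12235 tested probes too. They numbered 472 by the software's ratios, 351 without an offset, 67 in the main processing and 4 under median centring. A count of 0 among 12 family probes thus shows nothing particular to the family. No paired analysis was possible because only 1 pair of pools exists, though each ratio pairs the genotypes within an array. Dim signal limits the ratios: 3 of the 12 tested family probes had under 50 units above local background in at least 1 channel.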
